A study of Mus musculus with 11 samples.

Results

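The 9 genes described here encode secreted matrix proteins and lectins that macrophages make, together with a cell-surface receptor for such molecules: Spp1, Fn1, Thbs1, Tgfbi, Lgals3, Lgals1, Cd44, Vcan and Ecm1. They were taken by gene symbol out of 37375 genes listed in the 2 deposited tables, and all 9 were found in both tables. The choice was made with earlier results of these data known. RNA was sequenced from macrophages of C57BL/6 mice bearing subcutaneous Lewis lung carcinoma (LLC), a transplantable mouse lung tumor line, in a series on Sin1, a subunit of the kinase complex mTORC2. The first question was what loss of Sin1 in myeloid cells changes in tumor macrophages, and the second how these cells differ from macrophages of the spleen in the same kind of host. KO_TAM were 4 libraries of tumor-associated macrophages from LysMCre;Sin1fl/fl mice, WT_TAM were 4 from Sin1fl/fl mice, and WT_SP were 3 of splenic macrophages from Sin1fl/fl mice. All groups share the floxed gene, the strain and the injected LLC cells, and the mice were 6 to 8 weeks old at injection, with tissue taken 14 days later. LysMCre is expressed from the Lyz2 locus and deletes floxed genes in macrophages, monocytes and neutrophils, so deletion was not limited to cells within the tumor. Tumor macrophages were sorted as cells positive for CD45, CD11b and F4/80 and negative for Ly6G and Ly6C. Splenic macrophages were sorted as CD45 and F4/80 positive cells with low CD11b, and with TCRβ excluded as well. Whether the libraries of a group came from separate mice is not stated, and p-values therefore reflect the spread between libraries only, which may be technical.

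Matricellular proteins sit in the extracellular matrix and signal to cells rather than building fibers. Osteopontin (Spp1), fibronectin (Fn1) and the TGF-beta induced protein (Tgfbi) bind integrins, thrombospondin 1 (Thbs1) binds CD36 and CD47 and activates latent TGF-beta, and versican (Vcan) is a large proteoglycan that binds hyaluronan. CD44, the product of Cd44, is a receptor for both hyaluronan and osteopontin. Galectin 3 (Lgals3) and galectin 1 (Lgals1) are lectins that bind beta-galactoside sugars on glycoproteins, and extracellular matrix protein 1 (Ecm1) is a secreted glycoprotein. In tumors, osteopontin, fibronectin and galectin 3 are well-known products of macrophages.

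Recovered reads numbered between 7619237 and 13075298 per library, and levels are given as CPM, reads scaled to 1000000 of the library total times the authors' factor. A count of 3 reads was worth 0.211 to 0.492 CPM, a floor that covers counting error only. WT_TAM replicate 4 lay apart from its group, with a median absolute distance of 0.67 on the log2 scale where the other WT_TAM libraries had 0.21 to 0.22, and KO_TAM replicate 2 had 0.39 where the other KO_TAM libraries had 0.22 to 0.26. Mapkap1, the gene that encodes Sin1, had 44.0, 54.1, 43.3 and 45.9 CPM in KO_TAM replicates 1 to 4, against 71.1, 66.4, 59.7 and 30.7 CPM in WT_TAM. The KO_TAM libraries lay below 3 of the WT_TAM libraries and above WT_TAM replicate 4. Reads from exons outside the deleted part could be counted, so this check of the labels is limited. Macrophage markers were read in all groups, with summed levels of 10 genes between 10993 and 23639 CPM in KO_TAM and between 31901 and 50199 CPM in WT_TAM. Lyz2, which carries the Cre insertion, alone averaged 10333 CPM in KO_TAM and 27423 CPM in WT_TAM. Of the 10 macrophage markers, 7 had a lower fitted mean in KO_TAM, 3 had a higher one, and 0 were called. C1qa and C1qb were lower without overlap, as Lyz2 was, with ratios of the KO_TAM mean to the WT_TAM mean of 0.386 and 0.441. Itgam was higher without overlap, with a ratio of 1.47, so the markers did not move together. In the site table the sum of the 10 macrophage markers was 36131 to 53101 CPM in WT_TAM and 4450 to 4744 CPM in WT_SP. Markers of B and plasma cells summed to between 6231 and 7223 CPM in WT_SP despite the gate.

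Promoters of 4 of the genes are shown because they cover the range of the results: Spp1 had the largest difference between tumor and spleen of the 9 genes, Ecm1 carried the AP-1 match, Lgals3 was among the most abundant per length, and Cd44 had the smallest difference. Each runs 5′ to 3′ on the gene's strand over 300 bases, from 250 before to 50 after the start, with the sequences from RefSeq (GRCm38.p6). The Spp1 window is chr5:104434861-104435160 (plus strand), Ecm1 is chr3:95739520-95739819 (minus), Lgals3 is chr14:47373610-47373909 (plus) and Cd44 is chr2:102901616-102901915 (minus). The start used is that of the RefSeq table, and for Lgals3 it lies inside the gene as positioned below, downstream of the gene start given there. Capitals mark matches on either strand to the motifs of AP-1, searched as TGANTCA, the E-box, searched as CACGTG, the TATA box, for which the letters searched were TATAAA, and the PU.1 core, with the letters GAGGAA. No marked matches overlap.
Spp1: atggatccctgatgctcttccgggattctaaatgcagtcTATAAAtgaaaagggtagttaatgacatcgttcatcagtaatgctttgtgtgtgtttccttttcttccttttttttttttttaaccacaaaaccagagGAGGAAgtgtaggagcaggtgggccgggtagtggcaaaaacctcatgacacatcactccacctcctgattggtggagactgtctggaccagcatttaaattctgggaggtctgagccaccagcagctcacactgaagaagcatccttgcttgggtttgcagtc
Ecm1: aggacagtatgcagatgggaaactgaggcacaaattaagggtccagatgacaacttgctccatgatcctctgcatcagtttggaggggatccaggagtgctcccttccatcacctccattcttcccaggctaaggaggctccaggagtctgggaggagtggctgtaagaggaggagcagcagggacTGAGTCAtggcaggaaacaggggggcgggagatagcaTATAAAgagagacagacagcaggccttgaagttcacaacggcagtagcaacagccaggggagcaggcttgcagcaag
Lgals3: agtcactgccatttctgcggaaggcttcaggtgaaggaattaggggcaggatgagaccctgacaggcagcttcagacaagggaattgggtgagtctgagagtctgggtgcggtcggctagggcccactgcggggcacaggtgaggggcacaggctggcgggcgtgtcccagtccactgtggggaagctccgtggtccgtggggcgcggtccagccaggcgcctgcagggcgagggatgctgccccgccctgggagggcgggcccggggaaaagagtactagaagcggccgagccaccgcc
Cd44: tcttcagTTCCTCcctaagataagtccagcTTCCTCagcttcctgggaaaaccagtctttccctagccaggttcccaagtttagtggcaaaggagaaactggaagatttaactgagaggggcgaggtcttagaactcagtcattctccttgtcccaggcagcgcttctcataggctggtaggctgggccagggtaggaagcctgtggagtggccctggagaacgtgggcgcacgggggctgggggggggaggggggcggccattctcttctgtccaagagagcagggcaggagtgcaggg
The Spp1 window held a TATA box match 211 bases before the start and a PU.1 core match 113 before it. The Ecm1 window held an AP-1 match 64 bases and a TATA box match 27 bases before the start. Cd44 had 2 PU.1 core matches, at 243 and 220 bases before the start, and Lgals3 had none of the motifs. Among all 32851 promoters of this length, 7.81% held an AP-1 match, 7.15% an E-box, 13.6% a TATA box and 28.3% a PU.1 core. The table had promoters for 6 of the 9 genes, the others being Fn1, Thbs1 and Lgals1. The Tgfbi and Vcan windows held none of the motifs, nor did the window at a second Spp1 start. A match describes letters only.

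In GRCm38, Spp1 lies on chromosome 5 (104435118 to 104441050, plus strand), Fn1 on chromosome 1 (71585520 to 71653200, minus) and Thbs1 on chromosome 2 (118111876 to 118127133, plus). Tgfbi lies on chromosome 13 (56609523 to 56639562, plus), as does Vcan (89655312 to 89742509, minus), and Ecm1 on chromosome 3 (95734147 to 95739569, minus). Lgals3 lies on chromosome 14 (47367751 to 47386160, plus), Lgals1 on chromosome 15 (78926725 to 78930465, plus) and Cd44 on chromosome 2 (102811141 to 102901665, minus). Values are given per gene, so splice forms, which are numerous for Fn1, Cd44 and Vcan, are not separated.

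Levels can be compared between genes only per length, here as CPM per kilobase of transcript. In KO_TAM the order of mean levels was Spp1 (7300 CPM per kilobase), Lgals3 (6706), Lgals1 (1441), Tgfbi (834), Fn1 (522), Ecm1 (319.8), Thbs1 (234), Cd44 (133) and Vcan (2.14). In WT_TAM of the same table Lgals3 (6280 CPM per kilobase) stood before Spp1 (5924), and the other places were as in KO_TAM, with Lgals1 at 3928, Tgfbi at 981, Fn1 at 514, Ecm1 at 408, Thbs1 at 131, Cd44 at 115 and Vcan at 3.34. The Lgals1 mean in WT_TAM was raised by replicate 4, at 9907.5 CPM per kilobase, where the other 3 libraries had 1870 to 1995. The ranges of Spp1 and Lgals3 overlapped in both groups, as did those of Fn1 and Ecm1 and those of Thbs1 and Cd44. Those of Tgfbi and Fn1 and of Ecm1 and Thbs1 overlapped in KO_TAM, and those of Spp1 and Lgals1 in WT_TAM. The order within all these pairs is not beyond the spread. Vcan lay below every other gene in every library. In WT_SP the order was different: Lgals3 (273 CPM per kilobase) and Lgals1 (272) came first with overlapping ranges, followed by Cd44 (44.9), Tgfbi (37.7), Ecm1 (14.4), Fn1 (4.25), Spp1 (2.87), Thbs1 (2.25) and Vcan (0.319). Spp1 thus stood in seventh place in the spleen, and its range there overlapped those of Fn1 and Thbs1. Together the 9 genes took 2.97, 1.76, 2.71 and 3.09% of all reads in KO_TAM replicates 1 to 4 and 2.06, 2.70, 2.43 and 2.28% in WT_TAM. In WT_SP they took 0.0973, 0.0910 and 0.0904% of reads.

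**Figure D1:**
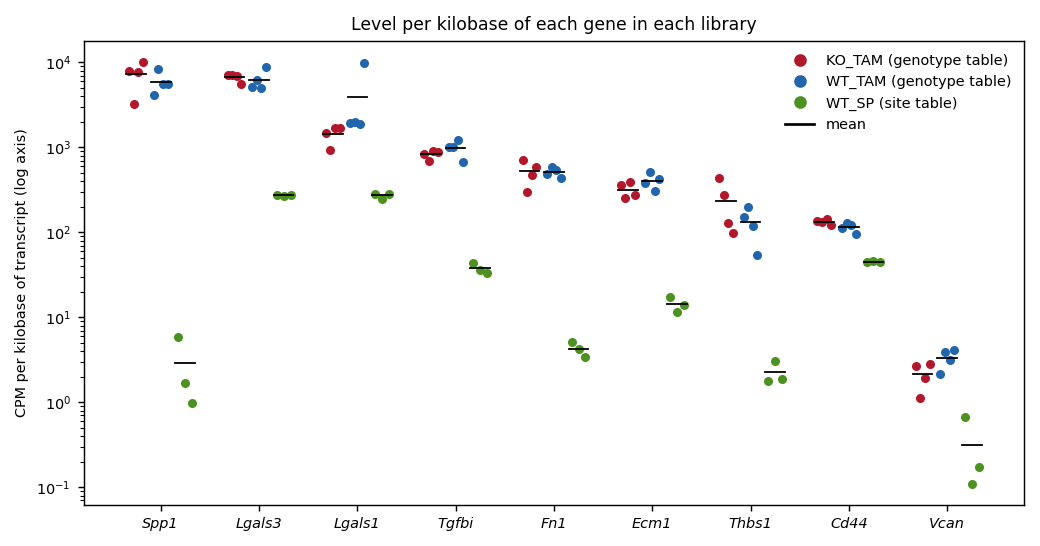
Level of each gene in CPM per kilobase of transcript (log axis), with a point per library and a bar at the group mean; KO_TAM and WT_TAM are from the genotype table and WT_SP from the site table, whose scaling factors differ. Spp1 and Lgals3 lead in both tumor groups, while in WT_SP the Spp1 mean is 2.87 and Lgals3 and Lgals1 lead at 273 and 272.

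The KO_TAM and WT_TAM comparison gave no called difference for any of the 9 genes. Each gene but Vcan had a mean of 582 CPM or more in both genotypes, and the ranges of the groups overlapped for all but Lgals1. Of the 9 genes, 0 passed the limma test at an adjusted p of 0.05 against 0% of the 12846 genes tested, and 0 passed at an unadjusted p of 0.05 against 18.3% of all genes. limma voom also called 0 of the 9. The fitted log2 fold changes ran from -1.05 to 0.74 with a median of -0.04, beside a median of 0.00 over all genes tested, and 4 of the 9 were positive. In bulk samples, fewer cells of a type and less RNA per cell cannot be told apart.

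Spp1 had 11390, 4571, 10978 and 14410 CPM in KO_TAM replicates 1 to 4, against 5874, 11861, 7996 and 7822 CPM in WT_TAM. The groups overlapped, with the lowest library of all in KO_TAM (replicate 2) and also the highest (replicate 4). Spp1 averaged 10337 ± 4137 CPM in KO_TAM and 8389 ± 2507 CPM in WT_TAM (mean ± SD, n = 4 each), which gave a log2 fold change of 0.23 ± 0.35 (SE; 95% interval -0.54 to 1.00; limma adjusted p = 0.731). Leaving out KO_TAM replicate 2 gave 0.58 and leaving out KO_TAM replicate 4 gave 0.03, and the adjusted p ranged from 0.248 to 0.971 over alternatives.

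Fn1 had 5699, 2409, 3846 and 4773 CPM in KO_TAM replicates 1 to 4, against 3857, 4768, 4398 and 3461 CPM in WT_TAM. KO_TAM replicate 2 was again the lowest of the 8 libraries, and the WT_TAM libraries lay within the KO_TAM range. In KO_TAM replicate 2 macrophage markers summed to 10993 CPM, against 20806 to 23639 CPM in the other KO_TAM libraries. Neutrophil markers summed to 1311 CPM there, against 360 to 532 CPM in the others and 110 to 290 CPM in WT_TAM. Markers of eosinophils, basophils and mast cells summed to 533 CPM there and to 116 to 174 CPM in the others. In WT_TAM they summed to at most 91.4 CPM. None of these markers was called, and their part in the Spp1, Fn1 and Vcan values was not tested. The log2 fold change of Fn1 was -0.04 ± 0.26 (SE; 95% interval -0.62 to 0.54; limma adjusted p = 0.946), and it was 0.20 without KO_TAM replicate 2 and 0.03 with scaling by library total alone.

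Thbs1 varied by factors of 4.36 within KO_TAM and 3.66 within WT_TAM. It had 2521, 1631, 753 and 578 CPM in KO_TAM replicates 1 to 4, against 881, 1173, 701 and 321 CPM in WT_TAM. KO_TAM replicates 1 and 2 lay above all WT_TAM libraries, and replicates 3 and 4 lay among them. This gave a log2 fold change of 0.74 ± 0.50 (SE; 95% interval -0.38 to 1.85; limma adjusted p = 0.432, range 0.178 to 0.903 over alternatives). It was 0.36 without KO_TAM replicate 1 or without WT_TAM replicate 4, and 0.20 without both libraries that lay apart. Thrombospondin 1 is also stored in platelets. Platelet and megakaryocyte markers summed to 15.6 to 51.0 CPM in KO_TAM and 6.95 to 9.16 CPM in WT_TAM. Of these 6 genes 0 were at 0 in a whole group, but only 2 reached the level for testing, and 0 were called. Itga2b averaged 17.5 CPM in KO_TAM and 3.62 CPM in WT_TAM, and Ppbp 8.88 and 3.53 CPM. The part of platelets in the Thbs1 values was not tested.

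Tgfbi had 2295, 1911, 2461 and 2417 CPM in KO_TAM replicates 1 to 4, against 2731, 2741, 3366 and 1847 CPM in WT_TAM. The lowest and the highest of the 8 libraries were both WT_TAM, replicates 4 and 3, and the log2 fold change was -0.21 ± 0.21 (SE; adjusted p = 0.589). Ecm1 had 682, 483, 746 and 526 CPM in KO_TAM, against 725, 985, 582 and 818 CPM in WT_TAM. WT_TAM replicates 1 and 3 lay within the KO_TAM range and the others above it, and the log2 fold change was -0.35 ± 0.22 (SE; adjusted p = 0.398). Ecm1 had a value of -0.21 without both libraries that lay apart.

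Vcan was the one gene at a low level, with 22.5, 9.51, 16.0 and 23.8 CPM in KO_TAM replicates 1 to 4, against 18.0, 32.7, 26.6 and 35.0 CPM in WT_TAM. These rest on between 92 and 385 reads per library. WT_TAM replicate 1 lay among the KO_TAM libraries and the other WT_TAM libraries lay above all of them. The log2 fold change of Vcan was -0.67 ± 0.32 (SE; 95% interval -1.37 to 0.04; limma adjusted p = 0.293), and it was -0.40 without KO_TAM replicate 2 and -0.28 without both libraries that lay apart. Fibroblasts are a known source of versican. Despite the sort for CD45, 8 fibroblast markers summed to 32.9 to 240.1 CPM in KO_TAM and 393 to 860 CPM in WT_TAM, with 0 of them at 0 in a whole group. All 8 had a lower fitted mean in KO_TAM and 0 were called. Their part in the Vcan and Fn1 values was not tested.

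Lgals3 and Cd44 were among the steadier genes. Lgals3 had 5690, 5743, 5551 and 4487 CPM in KO_TAM replicates 1 to 4, against 4100, 4938, 4003 and 7068 CPM in WT_TAM. KO_TAM replicates 1 to 3 lay above 3 of the WT_TAM libraries, but WT_TAM replicate 4 was the highest of all, and the log2 fold change was 0.13 ± 0.21 (SE; adjusted p = 0.758). Cd44 had 682, 671, 721 and 626 CPM in KO_TAM, against 568, 652, 622 and 486 CPM in WT_TAM. Only WT_TAM replicate 2 reached into the KO_TAM range, and the log2 fold change of Cd44 was 0.22 ± 0.16 (SE; 95% interval -0.14 to 0.59; limma adjusted p = 0.468), with an exact two-sided permutation p of 0.0571. Without WT_TAM replicate 4 the value was 0.14.

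Lgals1 was the only one of the 9 genes whose groups did not overlap, which held for 15.1% of all genes tested and, in the lower direction, for 8.70%. It had 751, 474, 874 and 863 CPM in KO_TAM replicates 1 to 4, against 998, 1026, 961 and 5093 CPM in WT_TAM. The KO_TAM libraries lay below the WT_TAM libraries, and WT_TAM replicate 4 lay far above the other 3. The log2 fold change was -1.05 ± 0.50 (SE; 95% interval -2.16 to 0.05; limma adjusted p = 0.288), and the exact two-sided permutation p of 0.0286 is the smallest that 4 against 4 libraries allow. The value was -0.47 without WT_TAM replicate 4 and -0.26 without both libraries that lay apart. The Lgals1 transcript measures 514 bases, the shortest of the 9, and the genes with the profile most like it over the 8 libraries encode ribosomal proteins. Rpl13a, Rps15 and Rps21 lay within a root mean square difference of 0.05 to 0.07 on the log2 scale, beside a spread of 0.93 for Lgals1 itself. Summed over 77 tested genes of cytosolic ribosomal proteins, a list chosen after this was seen, levels were 15243, 9706, 17384 and 16970 CPM in KO_TAM, against 19075, 20111, 20120 and 65794 CPM in WT_TAM. The part of this library-wide pattern in the Lgals1 values was not tested.

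**Figure D2:**
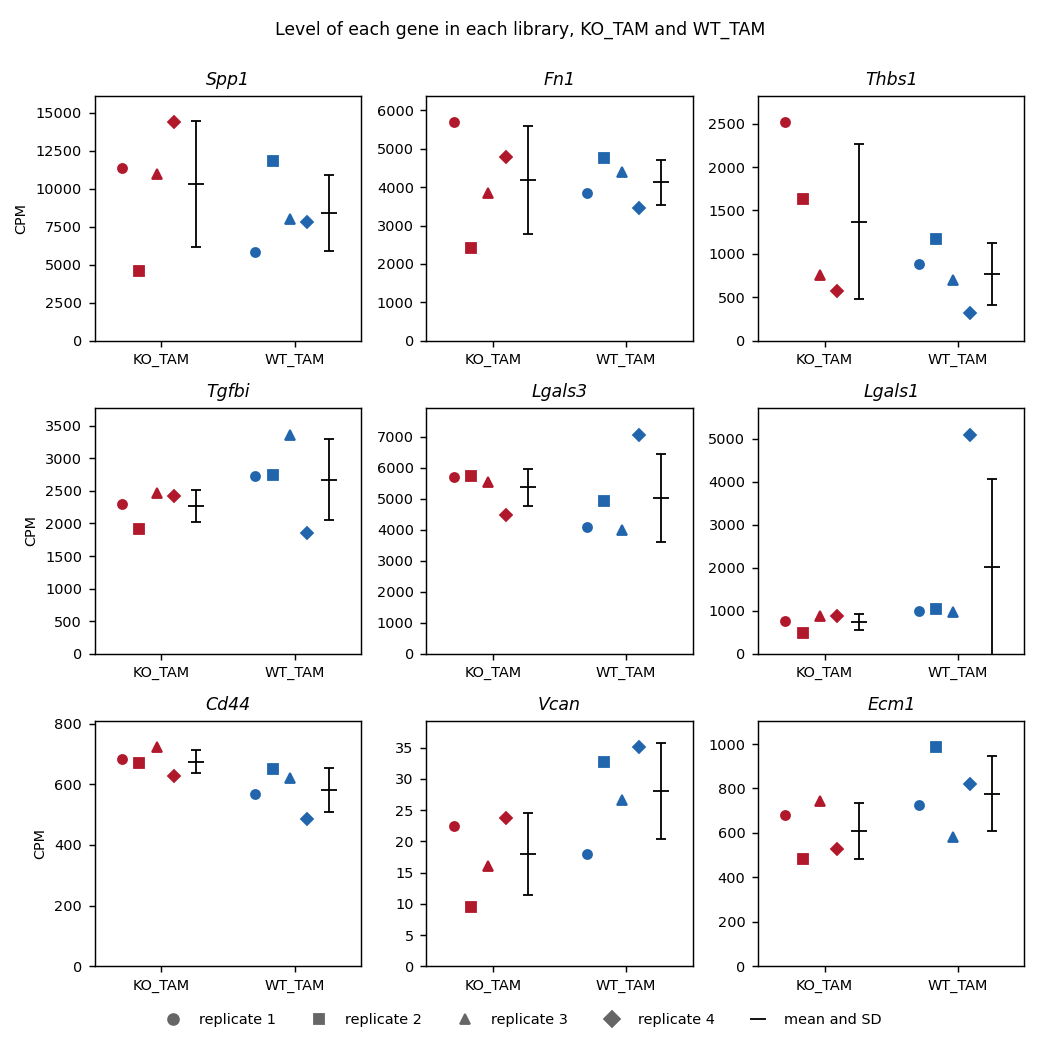
CPM of each gene in each library (linear axes from 0), KO_TAM on the left and WT_TAM on the right of each panel, with marker shapes for replicate numbers and bars for mean and SD (n = 4 each). The groups overlap in all panels but Lgals1, where WT_TAM replicate 4 stands at 5093 CPM and the other WT_TAM libraries at 961 to 1026.

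Other genes with the most similar profiles over the 8 tumor libraries differed from gene to gene. They were Gm37183, Dner and Lekr1 for Spp1, Tefm, Maml2 and Pwp2 for Fn1, and Abca1, Eml2 and Dip2a for Thbs1. They were Vhl, Syncrip and Cers5 for Tgfbi, Card19, Esd and Fth1 for Lgals3, and Zc3h15, Matr3 and Pxk for Cd44. For Vcan they were 2010001A14Rik, Fam216a and Wdr12, and for Ecm1 Anxa2, Selenbp1 and Akr1e1. The root mean square differences were between 0.05 and 0.33 on the log2 scale over 8 libraries, with each gene centred on its own mean.

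Between WT_TAM and WT_SP, all 9 genes were higher in the tumor macrophages. Osteopontin took between 0.613 and 1.13% of all reads in WT_TAM and at most 119 reads in a splenic library, fibronectin was higher by a factor of 136, and thrombospondin 1, TGF-beta induced protein, Ecm1 and galectin 3 were higher by factors between 25.6 and 66.6. All 9 passed the limma test at an adjusted p of 0.05 in the higher direction, where 23.1% of the 14239 genes tested did so and 46.7% were called in either direction. All 9 also had groups that did not overlap in that direction, as did 26.3% of all genes. The median log2 fold change was 4.84 over the 9 genes and -0.07 over all genes tested. Each gene was called under all 17 alternatives, and the exact two-sided permutation p was 0.0286 for each, the smallest that 4 against 3 libraries allow.

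Spp1 had 6768, 13697, 9056 and 8274 CPM in WT_TAM replicates 1 to 4, against 8.39, 2.39 and 1.39 CPM in WT_SP replicates 1 to 3. The splenic values rest on 119, 31 and 19 reads, and the lowest tumor library lay 807 times above the highest splenic one. For Spp1 the log2 fold change was 11.29 ± 0.49 (SE; adjusted p = 9.01e-07), the second largest of the 14239 genes tested. The closest profiles to Spp1 over the 7 libraries were those of Arg1 (5991 CPM in WT_TAM and 0.854 CPM in WT_SP), which encodes arginase 1, the chemokine gene Ccl7, and Mmp12, which encodes macrophage elastase. Gm42793, which overlaps Spp1 on the same strand, averaged at most 24.6 CPM in any group.

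Fn1 had 4444, 5506, 4981 and 3661 CPM in WT_TAM replicates 1 to 4, against 40.6, 34.0 and 27.6 CPM in WT_SP. The libraries within each site differed by factors of 1.50 and 1.47 at most, and the log2 fold change was 7.07 ± 0.21 (SE; adjusted p = 3.46e-07). Its closest profile was that of Cxcl2, a neutrophil chemoattractant, with 1623 CPM in WT_TAM and 12.0 CPM in WT_SP, followed by Fcrlb and Fam20c. Thbs1 had 1015, 1354, 794 and 339 CPM in WT_TAM, against 10.4, 17.9 and 11.1 CPM in WT_SP. WT_TAM replicate 4 was the lowest tumor library and still lay 18.9 times above the highest splenic one, with a log2 fold change of 5.88 ± 0.44 (SE; adjusted p = 1.31e-05). Platelet and megakaryocyte markers, in contrast, summed to 7.87 to 10.6 CPM in WT_TAM and 45.4 to 75.1 CPM in WT_SP. The closest profile to Thbs1 included Trem1, a receptor of myeloid cells that amplifies inflammation.

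Tgfbi had 3147, 3165, 3813 and 1954 CPM in WT_TAM replicates 1 to 4, against 119.7, 97.7 and 90.4 CPM in WT_SP. For Tgfbi the log2 fold change was 4.84 ± 0.25 (SE; adjusted p = 1.69e-06), and the closest profile to Tgfbi was that of Itga5, the alpha subunit of the fibronectin receptor. Ecm1 had 836, 1137, 659 and 865 CPM in WT_TAM, against 33.5, 22.0 and 26.8 CPM in WT_SP. Its log2 fold change was 4.96 ± 0.23 (SE; adjusted p = 1.12e-06), and Ctsl, which encodes the protease cathepsin L, was among its closest profiles. Both genes thus kept a measurable splenic level of 285 reads or more per library.

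Vcan had 20.7, 37.7, 30.1 and 37.1 CPM in WT_TAM replicates 1 to 4, against 5.64, 0.926 and 1.47 CPM in WT_SP. WT_SP replicate 1 lay above the other splenic libraries but below all tumor libraries. The log2 fold change was 3.59 ± 0.48 (SE; adjusted p = 0.000381), and it was 4.21 without WT_SP replicate 1. Gm4117, which overlaps Vcan on the opposite strand, had 2.75 CPM in WT_TAM and 1.54 CPM in WT_SP, and with no strand setting given its reads cannot be told apart from those of Vcan. Col5a1 and Itgbl1 were among the closest profiles to Vcan. The 8 fibroblast markers summed to 445 to 993 CPM in WT_TAM and 33.8 to 71.6 CPM in WT_SP, and 7 of them were called higher while Thy1 was called lower (5.08 CPM in WT_TAM and 24.6 CPM in WT_SP). Markers of epithelial and tumor cells, 5 in number, summed to 90.5 to 299.0 CPM in WT_TAM and 11.2 to 16.1 CPM in WT_SP, but did not move together. Cdh1 carried the sum, with 213 CPM in WT_TAM and 3.69 CPM in WT_SP, Epcam was called lower (2.14 CPM in WT_TAM and 9.29 CPM in WT_SP), and Krt18, the other one tested, was not called. Fibroblast markers were thus read despite the sort for CD45, while the sum of epithelial and tumor cell markers rested on Cdh1. The part of fibroblasts, and of epithelial or tumor cells if present, in the Vcan, Fn1, Tgfbi and Lgals1 values was not tested.

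Lgals3 had 4724, 5702, 4534 and 7476 CPM in WT_TAM replicates 1 to 4, against 223, 214 and 219 CPM in WT_SP. The splenic libraries lay within a factor of 1.04 of each other, and the log2 fold change was 4.65 ± 0.21 (SE; adjusted p = 9.38e-07). Lgals1 had 1149, 1184, 1089 and 5387 CPM in WT_TAM, against 144, 128 and 147 CPM in WT_SP. Its log2 fold change was 3.59 ± 0.53 (SE; adjusted p = 0.00066), and it was 3.03 without WT_TAM replicate 4, the library in which ribosomal protein genes summed to 69601 CPM against 21979 to 23225 CPM in the other WT_TAM libraries and 35685 to 40771 CPM in WT_SP. Cd44 had 654, 753, 705 and 514 CPM in WT_TAM, against 225, 230 and 226 CPM in WT_SP. That gave the smallest difference of the 9 genes, a log2 fold change of 1.51 ± 0.18 (SE; adjusted p = 0.000188), or a ratio of means of 2.89. With scaling by library total alone the value for Cd44 was 1.04 and it was still called.

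**Figure D3:**
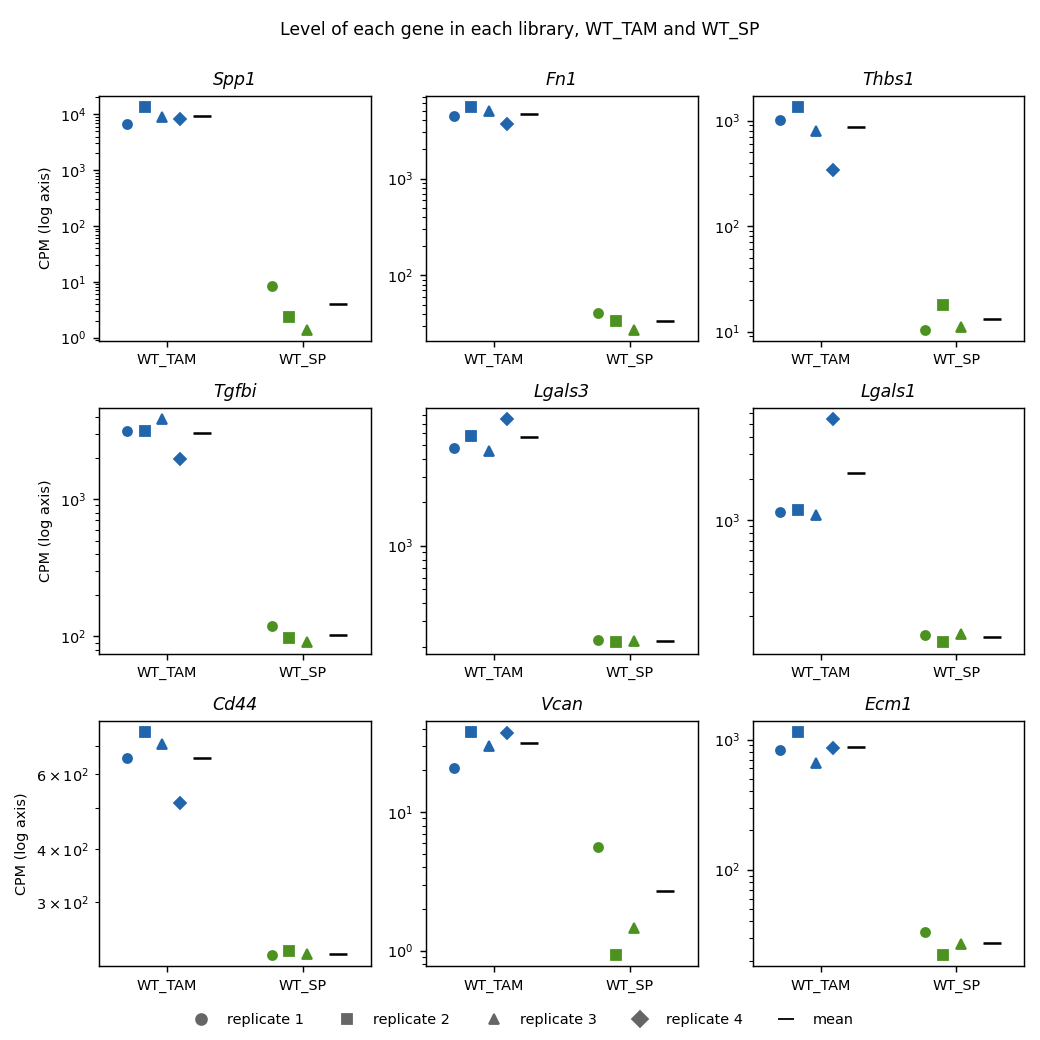
CPM of each gene in each library (log axes), WT_TAM on the left and WT_SP on the right of each panel, with marker shapes for replicate numbers and a bar for the mean. Every WT_TAM library lies above every WT_SP library in all 9 panels, with the widest gap for Spp1 (9449 and 4.06 CPM on average) and the narrowest for Cd44 (656 and 227 CPM).

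The macrophage markers themselves differed between the sites to unequal degrees. Csf1r, the receptor for the macrophage growth factor CSF1, had 1781 CPM in WT_TAM and 1070 CPM in WT_SP, and Adgre1, which encodes F4/80, had 516 and 301 CPM in the same groups, both with overlapping ranges and not called (limma adjusted p = 0.0654 and 0.0733). Mertk had 61.4 CPM in WT_TAM and 63.5 CPM in WT_SP. The other 7 macrophage markers were called higher, by ratios of means of 5.62 for Cd68, 5.91 for C1qa, 6.20 for C1qb, 10.2 for Fcgr1, 17.1 for Lyz2, 17.8 for Itgam and 66.9 for Cd14, the lipopolysaccharide co-receptor. Itgam encodes CD11b, which was a criterion of the sort: positive for WT_TAM and low for WT_SP. Its ratio is therefore no independent measure of the site, and gate and site cannot be told apart for the other genes either. Genes of splenic red pulp macrophages went the other way, with all 6 called lower in WT_TAM, and B and plasma cell markers summed to 4.59 to 55.8 CPM in WT_TAM. Cd44 differed between the sites by a ratio closer to those of Csf1r (1.66) and Adgre1 (1.71) than to that of Cd68. The ratios of Vcan (11.7) and Lgals1 (15.8, with the high WT_TAM replicate 4 included) lay within the range of the called macrophage markers, below those of Lyz2 and Itgam. Lgals3, Tgfbi, Ecm1 and Thbs1, with ratios from 25.6 to 66.6, lay between Itgam and Cd14, and only Fn1 (136) and Spp1 (2329) exceeded Cd14. Whether the amount of macrophage RNA in the splenic libraries has a part in the lower splenic levels was not tested.

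**Figure D4:**
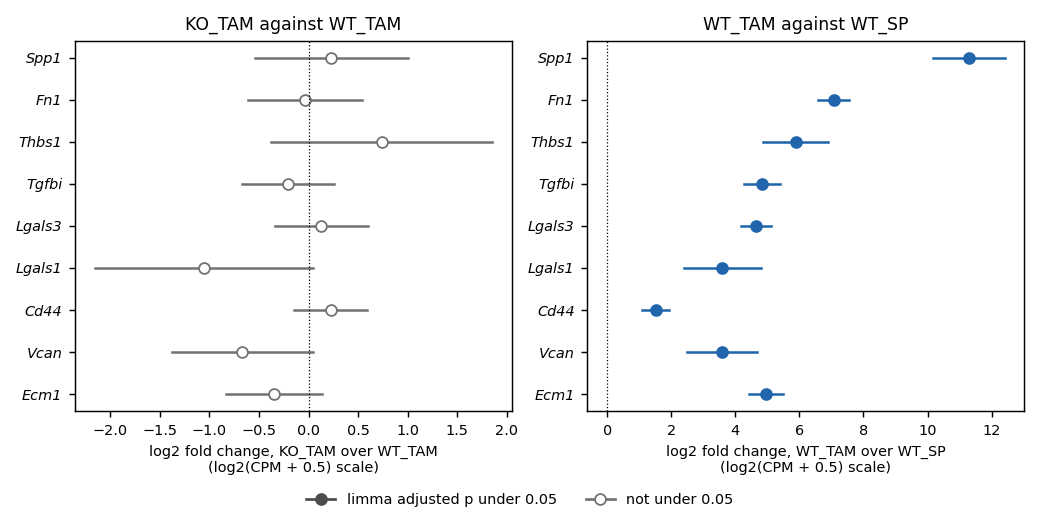
Log2 fold change of each gene on the log2(CPM + 0.5) scale with its 95% interval, KO_TAM over WT_TAM in the left panel and WT_TAM over WT_SP in the right panel; filled points passed the limma test. All 9 intervals of the left panel include 0, and all 9 of the right panel lie above 0, from 1.51 for Cd44 to 11.29 for Spp1.

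Receptors and partners of the 9 proteins were followed in 6 lists. Of 11 tested integrin subunits that bind osteopontin or fibronectin, 5 were higher and 1 lower in WT_TAM than in WT_SP. Over all genes 23.1% were called higher and 46.7% in either direction, the latter not far from the share of these subunits. The median log2 fold change of the subunits was 0.99, beside -0.07 over all genes tested. Itga5 had the largest difference, with 241 ± 59.7 CPM in WT_TAM (SD, n = 4) and 7.74 ± 2.58 CPM in WT_SP (SD, n = 3), a log2 fold change of 4.88 ± 0.28 (SE; adjusted p = 2.79e-06). Itga3 (3.31), Itgb5 (2.37), Itgb1 (1.41) and Itgav (1.39) were also higher on the log2 scale, and Itga4, the alpha subunit of the lymphocyte integrin VLA-4, was lower (-1.37). Without WT_TAM replicate 4 the counts were 6 higher and 4 lower, and the count of genes called over the whole table also moves when a library is left out. With scaling by library total alone they were 5 and 4, where 2135 of all 14301 genes tested were called higher and 5629 lower. Itgb7, the most abundant of these subunits per kilobase over the site table, was not called (-0.49; limma adjusted p = 0.0866).

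Among 16 tested genes of the list of other matricellular proteins, 9 were higher and 2 lower in WT_TAM, with a median of 1.78. Over all genes, 23.1% were called higher and 46.7% in either direction. Cyr61, an integrin-binding CCN protein, had 90.4 ± 32.1 CPM in WT_TAM (SD, n = 4) and 2.70 ± 3.89 CPM in WT_SP (SD, n = 3), and Sparc, a collagen-binding protein, had 421 ± 258 and 11.6 ± 9.53 CPM in the same groups. Efemp2 (3.18), Tnc (2.91), Postn (2.61) and Fbln1 (2.58) were higher on the log2 scale as well. Smoc2 and Fbln5 were lower, both at under 5 CPM, and Fbln5 was not called without WT_SP replicate 1 or 3 or without WT_TAM replicate 1 or 3. Of the 8 fibroblast markers, 7 were higher in the same libraries, as given above, and their part in these values was not tested. The list of other galectins also holds Lgals3bp, which encodes a galectin-binding glycoprotein and not a galectin. Of 5 tested genes of this list, 2 were called, a share below the 46.7% of all genes. Lgals3bp was higher (0.89 ± 0.21, SE; adjusted p = 0.00825) and Lgals4 lower (-1.12 ± 0.35, SE; adjusted p = 0.0274). Lgals3bp was not called with scaling by library total alone, and Lgals4 was not called when any 1 of the WT_SP libraries was left out. The median of that list was 0.24, and Lgals9, its most abundant member per kilobase in the site table, had 0.18 (adjusted p = 0.395).

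Of 13 thrombospondin receptors and genes of latent TGF-beta activation tested, 6 were higher and 2 lower in WT_TAM, beside the same 23.1% higher and 46.7% in either direction over all genes, with a median of 0.90. Lrp1, an endocytic receptor that takes up thrombospondin 1, had 1077 ± 168 CPM in WT_TAM (SD, n = 4) and 156 ± 14.9 CPM in WT_SP (SD, n = 3), a log2 fold change of 2.78 ± 0.19 (SE; adjusted p = 6.26e-06). The latent TGF-beta binding proteins Ltbp4 (4.74), Ltbp3 (3.43), Ltbp1 (2.72) and Ltbp2 (2.56) were higher on the log2 scale. Cd47, a thrombospondin receptor and the most abundant of the list per kilobase, was not called (-0.19; limma adjusted p = 0.385). Lrrc32 and Tgfbr2 were lower (both -1.30), and neither was called when any 1 of the WT_SP libraries was left out. Without WT_TAM replicate 4 the counts were 9 higher and 2 lower, in a setting where the count of genes called over the whole table can move as well.

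Of 13 genes of hyaluronan and versican metabolism tested, 9 were higher and 0 lower, where 23.1% of all genes were called higher, with a median of 1.50. The hyaluronan synthase Has1 had 40.8 ± 14.5 CPM in WT_TAM (SD, n = 4) and 0.778 ± 1.16 CPM in WT_SP (SD, n = 3), and Tnfaip6, which encodes the hyaluronan-binding protein TSG-6, had 10.6 ± 5.26 and 0.245 ± 0.0329 CPM in the same groups. Adamts1, a protease that cleaves versican, was higher by 3.63 and Hyal1, a hyaluronidase, by 2.65 on the log2 scale. Lyve1 and Adamts4 had 3.20 and 1.86 CPM in WT_TAM and lay below the floor of 3 reads in WT_SP, at 0.0470 and 0.101 CPM. Hyal2, the most abundant per kilobase, had a log2 fold change of 1.42 ± 0.22 (SE; adjusted p = 0.000779). Of 16 matrix crosslinking enzymes and proteoglycans, 15 were higher and 1, the transglutaminase Tgm1, was lower, against the same 23.1% of all genes higher, with a median of 2.33. Dcn (5.81), Bgn (5.14), F13a1 (4.02), Hspg2 (3.58), Sdc2 (3.23) and Loxl2 (2.45) had the largest log2 fold changes, and Dcn and Lum of this list are also fibroblast markers. Srgn, which encodes serglycin, the proteoglycan of granules in blood cells, had 1532 ± 194 CPM in WT_TAM (SD, n = 4) and 353 ± 33.7 CPM in WT_SP (SD, n = 3), a log2 fold change of 2.11 ± 0.18 (SE; adjusted p = 2.14e-05). Lox was listed at 0 reads in all WT_SP libraries and had 2.65 CPM in WT_TAM. Lum was not called in 5 of the 7 settings that left out a library, namely WT_SP replicate 2 or 3 or WT_TAM replicate 1, 2 or 4. Tgm1 was not called without WT_SP replicate 1, nor Lox without WT_TAM replicate 1.

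In KO_TAM against WT_TAM, limma and limma voom called 0 genes of each list. At an unadjusted limma p of 0.05, which 18.3% of all genes passed, the counts were 6 of 11 integrins and 9 of 11 other matricellular proteins. They were 1 of 5 genes of the galectin list and 4 of 13 thrombospondin and TGF-beta genes. For the last lists they were 4 of 10 hyaluronan and versican genes and 9 of 16 crosslinking and proteoglycan genes. The galectin count is near the share over all genes. The other matricellular proteins had a median log2 fold change of -1.41 with 0 of 11 members positive, and the crosslinking and proteoglycan list had -0.97 with 6 of 16 positive. Sparc averaged 65.8 ± 44.9 CPM in KO_TAM and 381 ± 249 CPM in WT_TAM (mean ± SD, n = 4 each), with a log2 fold change of -2.61 ± 0.59 (SE; adjusted p = 0.114). Fibroblast markers were lower in the KO_TAM libraries without overlap, at the summed levels given above, and their part in these lists was not tested. The medians of the other lists were 0.16 for the integrins and 0.07 for the galectin list. They were -0.04 for the thrombospondin and TGF-beta genes and -0.42 for the hyaluronan and versican genes. Srgn averaged 1910 ± 342 CPM in KO_TAM and 1367 ± 208 CPM in WT_TAM (mean ± SD, n = 4 each; log2 fold change 0.48 ± 0.19, SE; adjusted p = 0.246). Cd36, a thrombospondin receptor and fatty acid carrier named after its values were seen, averaged 269 ± 104 CPM in KO_TAM and 85.1 ± 41.6 CPM in WT_TAM (mean ± SD, n = 4 each; log2 fold change 1.78 ± 0.51, SE; adjusted p = 0.146).

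**Figure D5:**
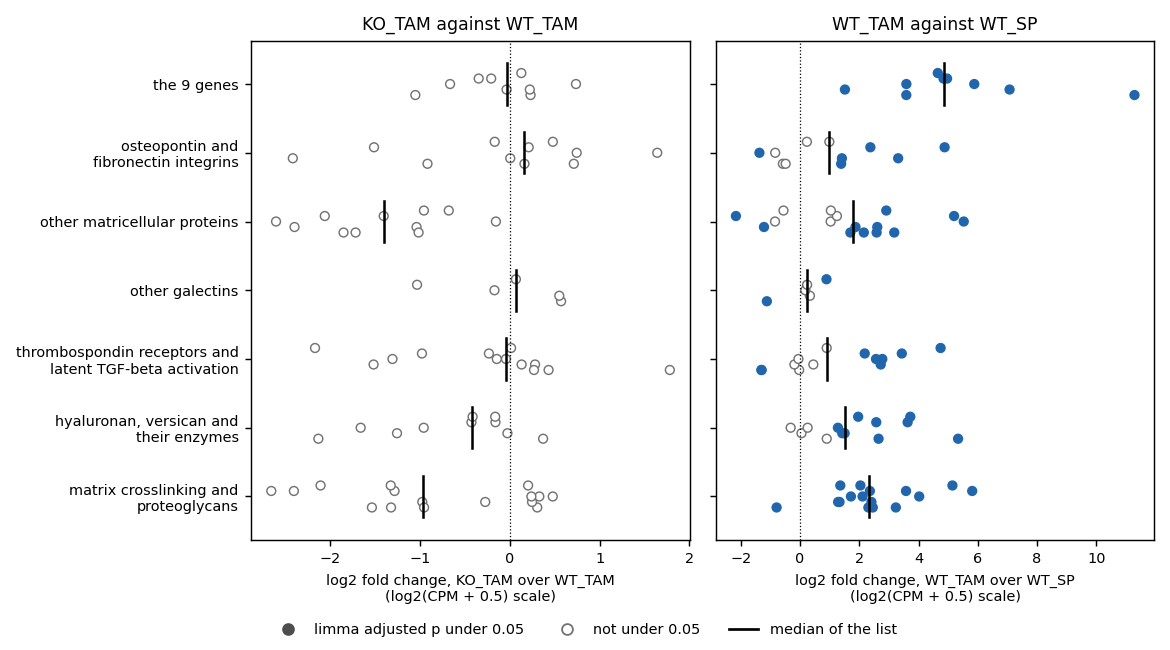
Log2 fold change of every tested gene of the 6 lists and of the 9 genes, KO_TAM over WT_TAM in the left panel and WT_TAM over WT_SP in the right panel; filled points passed the limma test and black bars are list medians. The left panel holds no filled point, and in the right panel the median of the 9 genes, 4.84, lies above the medians of the lists, 0.24 to 2.33.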

How the data were processed

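RNA-seq values were taken from 2 deposited tables, 1 for KO_TAM and WT_TAM and 1 for WT_TAM and WT_SP, with groups and replicate numbers from the sample titles. The submitters' processing notes name mm10, DESeq2, HTSeq, SAMtools, HISAT, HISAT2 and TopHat2. What each did, its version, the annotation and the strand setting are not given in the sources used. The authors deposited values that are not read counts, although named so, and they were treated as a score. From the values themselves, each turned out to be whole reads divided by gene length, library total and library factor, times the factor of a library taken in turn down the rows. Reads were recovered on that basis, within 1e-05 reads or 1e-08 of their size, and make up between 99.4% and 100.0% of each library's implied total. For 13573 genes the deposited values were negative, as with a length of -1 in place of a gene length. These genes have reads but no level per kilobase. Among genotype values, 99 cells of 35 genes were not whole or differed between the tables, and 30 genes with such KO_TAM cells were left out of its fit. None of the 9 genes was among them. All numeric columns were used, so 0 were left out.

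CPM are reads per 1000000 of the library total times the authors' factor, and levels were compared only within a table. log2(CPM + 0.5) was fitted in R 4.3.3 by limma 3.58.1 with its trend and robust options, for each comparison's own groups. Tested genes held at least the CPM of 10 reads in a library of median size, in as many libraries as the smaller group has, and 15 reads in all. Two-sided p-values were adjusted by Benjamini-Hochberg over all genes tested, with a threshold of 0.05. Fold changes on this scale understate those of low genes. A count test was not used because the deposited unit is a score, and the procedure was tested on simulated data. The members and lists were chosen with earlier results of these data known. Named from the lists were called genes with up to the 6 largest changes per list, the most abundant member per kilobase, and genes among the 3 most like each member; a gene that this rule picks is not reported here. Alternatives were scaling, pseudocounts of 0.1 and 1, no filter, limma voom, no robust option, library weights, all groups in 1 fit, values as deposited, a replicate block, and leaving out libraries. Positions are those of GRCm38 and promoters are from RefSeq. Replicates differed from each other by more than counting noise, so each was counted once.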

Additional observations from a re-analysis of the deposited data

Results flagged for a closer look

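In groups of 4 libraries, 27 sets of values of the 9 genes were looked at for a library far from the others, and chance flags about 1 in 20 such groups. Lgals1 in WT_TAM replicate 4 stood at 5092.5 CPM in the genotype table, a gap to the next library of 0.984 of the range, and at 5386.9 CPM in the site table, a gap of 0.978. These are the same reads. Lgals3 in KO_TAM replicate 4 stood at 4486.7 CPM, below the other KO_TAM libraries by 0.847 of the range.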

How the results depend on the processing

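In KO_TAM against WT_TAM, the count of genes past the threshold was 0, and it was 97 without a filter on low reads, 379 with a weight per library, 65 without both libraries that lay apart, 4 with the values as deposited and 83 with all 3 groups in 1 fit. Leaving out 1 library at a time gave 0 to 0 genes. None of the 9 genes was called under these or the other alternatives, 20 in all. The cause of the higher counts was not tested. Fn1 changed sign, from -0.04 to 0.034 with scaling by library total alone, 0.072 with a weight per library, 0.036 without WT_TAM replicate 2, 0.20 without KO_TAM replicate 2 and 0.12 without both libraries that lay apart. Leaving out 1 library at a time gave Fn1 values of -0.21 to 0.20. The other 8 genes kept their sign under every alternative run.

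In WT_TAM against WT_SP all 9 genes were called under all 17 alternatives, and the count of genes over the table ranged from 4977 to 9134 when 1 library was left out. With scaling by library total alone the median of all genes moved to -0.52 from -0.07 on the log2 scale, 27.5% of 7764 calls were higher instead of 49.4% of 6651, and the 9 genes had values between 1.04 and 10.85. With the replicate number as a block the counts were 0 genes and 0 of the 9 genes for KO_TAM against WT_TAM. For WT_TAM against WT_SP they were 9115 genes and 9 of the 9 genes. WT_SP had no replicate 4, so under this block WT_TAM replicate 4 did not bear on the site difference. The fold changes of that fit are those without this library, such as 3.03 for Lgals1. Same-numbered libraries deviated together with correlations of -0.16 to 0.20 between KO_TAM and WT_TAM and -0.09 to 0.10 between WT_TAM and WT_SP, so the numbers were not taken as pairs. The counts of the lists without single libraries or with other scalings were chosen after seeing the data. Depth limits Vcan in the spleen, with 12 to 80 reads per library, and Spp1 there, with 19 to 119.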

Other observations

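WT_TAM replicate 4, the library in which Lgals1 stood highest, also differed from its group by transcript length. Among tested genes of 600 bases or shorter, 421 in number, its level lay above the mean of the other WT_TAM libraries by a median of 1.28 on the log2 scale. Among 10357 genes of over 600 to 5000 bases the median was -0.12, and among 1155 longer genes it was -0.14. In the KO_TAM libraries, each set against the other 3, the median for the short genes lay between -0.32 and 0.18. The length classes were chosen after the values of Lgals1 were seen.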
